A study of Mus musculus with 18 samples.

Results

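A set of 10 genes around the lysosomal nutrient-sensing switch were followed in RAW cells, a mouse macrophage-like line, after stimulation and PIKfyve inhibition. They are the 4 transcription factor genes of the MiT/TFE family (Tfeb, Tfe3, Mitf and Tfec), the folliculin complex genes Flcn, Fnip1 and Fnip2, the Rag GTPase genes Rragc and Rragd, and the lysosomal glycoprotein gene Gpnmb. The members are the probe sets annotated to these 10 genes on this mouse array, and each gene is represented by the probe set with the highest mean. All 10 genes had probe sets, 18 in all. Of the 10 genes, 9 were bright enough to be tested among the 12257 genes tested in the whole series, and Rragd was not.

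RAW cells were kept in DMEM medium without stimulus, or received R848, an agonist of Toll-like receptor 7, at 0.1 mM as the labels give it, a dose that may carry an error of unit. Stimulated cells had R848 alone, R848 with apilimod at 1 uM, or R848 with API09 at 1 uM. Apilimod inhibits the lipid kinase PIKfyve, and the series design calls API09 its inactive analog. There were 18 arrays: 2 of medium at 0 h, and 1 each of medium, R848, R848+apilimod and R848+API09 at 1, 3, 7 and 22 h. All cells came from 1 established line, no other genotype was used, and the labels do not say whether a vehicle was added to the arms without a compound or whether each array is a culture of its own. For differences within hours, the p-values rest on a spread that only part of the arrays supply. These are the 2 medium arrays at 0 h and, at each later hour, R848 alone paired with R848+API09. An effect of API09 would thus count as spread, and scatter by culture cannot be told from scatter by technique. Apilimod arrays and later medium arrays had no partner and add nothing to this spread.

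Of 10 macrophage marker genes, 9 were above the filter on at least 3 arrays, and the summed intensity of the list was 44388 to 56203 over all arms. The median intensity was 17.5 to 19.2 over the 18 arrays. The R848+API09 array at 22 h stood apart, with an upper quartile of 87.0 against 100.9 to 118.6 on the others and the highest level of the 18S ribosomal RNA control probe sets (a mean log2 of 10.5, against 7.94 to 10.1 on the others). The upper quartiles of the R848 (103.6) and R848+apilimod (100.9) arrays at 22 h were also below those of all arrays but the stimulated ones at 22 h (110.5 to 118.6). The R848+API09 array at 22 h enters the R848 controls at that hour and the estimate of the spread at every hour. The values without it stand beside the differences whose call it changed.

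The MiT/TFE proteins are basic helix-loop-helix transcription factors that switch on genes of lysosomes and autophagy. In fed cells the Rag GTPases, held active on the lysosome by the folliculin-FNIP complex, bring TFEB and TFE3 to the kinase mTORC1, which phosphorylates them and keeps them in the cytoplasm. Several genes of this switch, among them Flcn, Fnip1, Fnip2, Rragc, Rragd and Gpnmb, are known targets of the same transcription factors, and in macrophages and osteoclasts Mitf, Tfe3 and Tfec act on genes of bone resorption. An array measures the amount of RNA, not the location or phosphorylation of these proteins.

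With apilimod, genes of the folliculin complex, Rragc and Gpnmb rose and Mitf fell, first at 3 h. The comparison set the R848+apilimod array of an hour against the R848 and R848+API09 arrays of that hour (R848 controls). Differences are in log2(intensity + 16) units with the standard error of the fit, and a gene passed at an adjusted p under 0.05 over all genes tested (limma, Benjamini-Hochberg, two-sided). At 1 h 0 of the 9 genes passed, as did 0% of all genes (0 of 12257; 165 genes and 0 of the 9 had an unadjusted p under 0.05). At 3 h 8 of the 9 passed, 6 higher and 2 lower, against 9.19% of all genes (5.07% higher and 4.12% lower). At 7 h 5 rose and 1 fell, against 19.6% of all genes passing (9.81% higher and 9.81% lower). At 22 h 4 rose and 0 fell, against 34.5% (20.2% higher and 14.3% lower). The members were chosen with earlier results of these data known, so these counts describe the set and do not test it.

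R848 without apilimod changed members of the set from 3 h on, with falls outnumbering rises at 3 and 22 h. Against the medium array of the same hour, 0 of the 9 genes passed at 1 h (0.702% of all genes passed). At 3 h 4 passed, 1 higher and 3 lower, against 15.4% of all genes (6.23% higher and 9.19% lower). At 7 h 3 rose and 3 fell, against 29.8% (11.3% higher and 18.5% lower). At 22 h 1 rose and 7 fell, against 45.7% (16.5% higher and 29.1% lower). The balance over all genes at 22 h depends on the scaling, with 36.2% of the calls higher here and 52.1% with quantile normalization. The R848 controls are the subtracted arrays in the apilimod comparison and the first term here, so the 2 comparisons share arrays and one does not support the other. Without the R848+API09 array at 22 h, and likewise without the R848 array of that hour, 3 more differences passed at 3 h through the estimate of the spread: Flcn (-0.26), Gpnmb (-0.29) and Tfec (0.31).

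**Figure D1:**
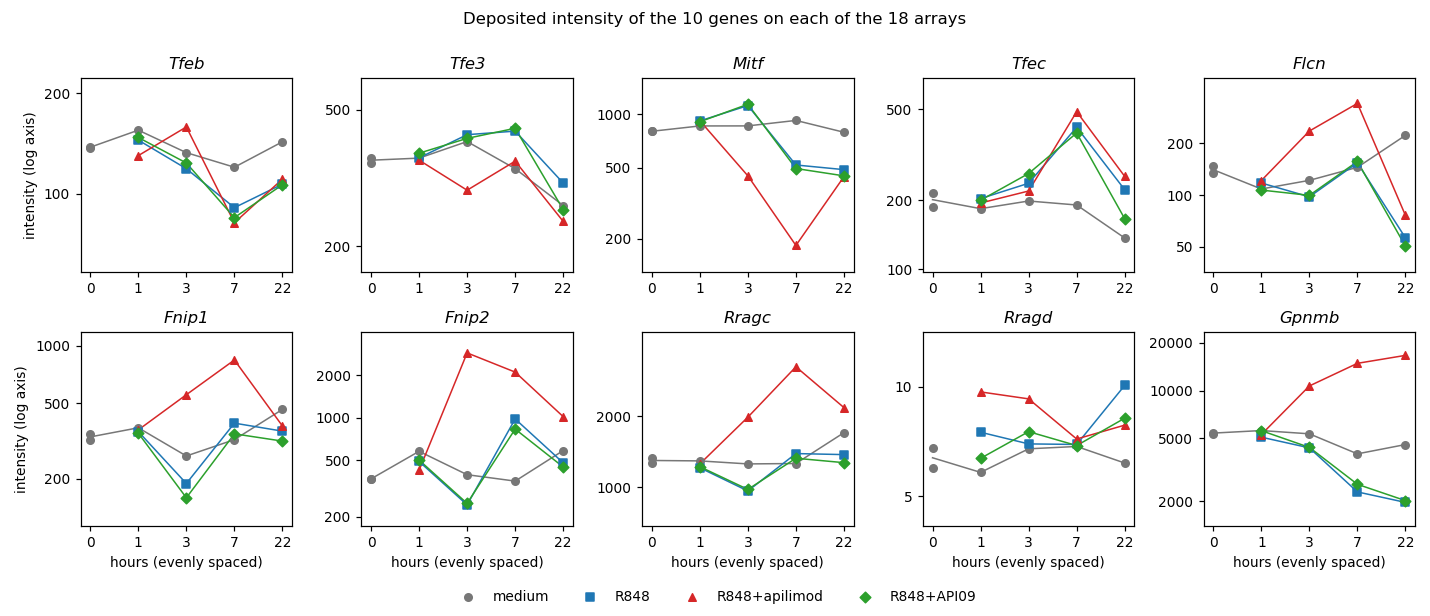
Deposited intensity (log axis, each panel on its own scale) of the 10 genes by hour, evenly spaced, for medium (grey circles, 2 arrays at 0 h), R848 (blue squares), R848+apilimod (red triangles) and R848+API09 (green diamonds), 1 point per array and lines through the mean of each arm and hour. From 3 h on the R848+apilimod points of Fnip2, Rragc and Gpnmb lie above all other arms, the Mitf points at 3 and 7 h lie below them, and all Rragd points lie between 5.82 and 10.1.

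Among the transcription factor genes, Mitf, which is named for its role in pigment cells and also acts in osteoclasts, had the largest change. Its intensity was 791 to 921 on the 6 medium arrays, with a median of 830. At 1, 3, 7 and 22 h it was 916, 1116, 519 and 488 with R848, 906, 1135, 495 and 451 with R848+API09, and 918, 451, 184 and 446 with R848+apilimod. Mitf was thus higher than medium with R848 at 3 h and lower later, while the apilimod array was already the lowest at 3 h and lower still at 7 h. With R848 it rose by 0.38 ± 0.09 at 3 h (limma, adjusted p = 0.0110) and was lower at 7 h (-0.84 ± 0.09) and 22 h (-0.73 ± 0.09). Apilimod lowered it against the R848 controls by a difference of -1.29 ± 0.09 at 3 h (limma, adjusted p = 3.13e-06) and -1.39 ± 0.09 at 7 h (limma, adjusted p = 6.01e-07), to 40.9% and 38.2% of the controls on the scale with 16 added. At 22 h the 3 stimulated arms lay together (-0.07 ± 0.09, not passing). Against medium, the apilimod array at 7 h was at -2.23 ± 0.10.

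A second, dimmer Mitf probe set (25.8 to 183) followed the first at 3 h (-1.19 ± 0.32) and 7 h (-1.35 ± 0.32), and both differences passed. At 22 h it read 25.8 on the R848+API09 array and 77.2 and 68.3 on the R848 and R848+apilimod arrays, and the difference of 0.43 ± 0.32 did not pass. Its rise with R848 at 3 h (0.41) and its fall at 7 h (-0.46) did not pass either. The rise of Mitf with R848 at 3 h was also lost without the R848+API09 array of that hour (0.37).

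Tfe3, a broadly expressed relative of Tfeb, moved little. It read 263 to 404 on the medium arrays, with a median of 356. At 1, 3, 7 and 22 h it was 362, 423, 433 and 305 with R848, 373, 412, 441 and 256 with R848+API09, and 356, 291, 354 and 236 with R848+apilimod. From 3 h on the apilimod array was the lowest of the stimulated arms at each hour. The difference from the R848 controls was -0.50 ± 0.10 at 3 h, which passed (limma, adjusted p = 0.00983), and -0.29 ± 0.10 at 7 h and -0.23 ± 0.10 at 22 h, which did not. Leaving out the R848+API09 array at 22 h, the one that stood apart, the later differences (-0.29 at 7 h and -0.35 at 22 h) passed too, as they did with quantile normalization (-0.30 and -0.28). The one at 7 h passed as well with a pseudocount of 64 (-0.26) and without the R848 array at 22 h. Without the R848 array at 3 h the first call was lost (-0.48). R848 raised Tfe3 by 0.36 ± 0.10 at 7 h, a call lost without either control array of that hour (0.35 and 0.38). Its difference from medium at 22 h (0.08) passed only without the R848+API09 array of that hour (0.21) and with quantile normalization (0.25).

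Tfeb, the best known activator of lysosomal genes, changed by under 0.5 log2 units in the comparisons with R848 controls. Its intensity was 120 to 155 on the medium arrays (median 138). It was 145, 119, 90.9 and 107 with R848, 148, 124, 84.9 and 106 with R848+API09, and 130, 159, 81.9 and 111 with R848+apilimod at 1, 3, 7 and 22 h. All 3 stimulated arms were below medium at 7 and 22 h, and the apilimod array was the highest at 3 h. R848 lowered Tfeb at 7 h (-0.39 ± 0.08) and 22 h (-0.38 ± 0.08), and with quantile normalization the call at 22 h was lost (-0.13). With apilimod it rose by 0.35 ± 0.08 at 3 h (limma, adjusted p = 0.0233). That call was lost with R848+API09 alone as the control (0.32), with trended and robust variances (0.35), without either control array of the hour (0.37 and 0.32), and without either medium array at 0 h, which enters the estimate of the spread. At 7 and 22 h the differences were -0.08 ± 0.08 and 0.05 ± 0.08.

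Tfec, the family member found mainly in macrophages, rose with the stimulus. It read 137 to 216 on the medium arrays (median 189), and 204, 238, 417 and 223 with R848, 200, 262, 394 and 166 with R848+API09, and 195, 220, 487 and 254 with R848+apilimod. Every stimulated array at 7 and 22 h was above the medium array of its hour. R848 raised it by 1.02 ± 0.15 at 7 h (limma, adjusted p = 0.000277) and 0.45 ± 0.15 at 22 h, and without the R848 array at 22 h the latter call was lost (0.25). The R848 and R848+API09 arrays lay farthest apart for Tfec at 22 h, with a difference of -0.39 for API09. None of its differences from the R848 controls passed with apilimod (-0.17 ± 0.15, 0.26 ± 0.15 and 0.37 ± 0.15 at 3, 7 and 22 h). The last one passed without the R848 array at 22 h (0.57) and with quantile normalization (0.29), and was 0.18 without the R848+API09 array, where it did not pass.

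All 3 genes of the folliculin complex, which acts on the Rag GTPases, were higher with apilimod at 3 and 7 h. Flcn encodes folliculin, the GTPase-activating subunit. Its intensity was 108 to 222 on the medium arrays (median 139), 117, 97.6, 154 and 56.4 with R848, 107, 99.5, 156 and 50.5 with R848+API09, and 121, 235, 340 and 76.1 with R848+apilimod. The stimulated arrays at 22 h were all below every medium array, with or without a compound, while at 3 and 7 h the apilimod arrays were above every medium array. R848 lowered Flcn at 22 h by a difference of -1.78 ± 0.10 (limma, adjusted p = 2.38e-07), to 29.2% of medium. Apilimod raised it by 1.13 ± 0.10 at 3 h (limma, adjusted p = 1.97e-05), 1.06 ± 0.10 at 7 h and 0.41 ± 0.10 at 22 h. Against medium the apilimod array at 22 h was still lower (-1.37 ± 0.11).

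A second Flcn probe set gave 1.02 ± 0.12 and 0.93 ± 0.12 at 3 and 7 h with apilimod, and both passed. At 22 h it read 66.8 with R848+apilimod, between 70.4 with R848 and 51.8 with R848+API09, and its difference of 0.11 ± 0.12 did not pass. The rise of Flcn at 22 h thus rests on 1 of 2 probe sets, and the mean of both (0.26) did not pass. The last Flcn probe set was below the filter on every array (4.67 to 8.52).

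Fnip1 encodes a partner that folliculin needs on the lysosome. It read 263 to 463 on the medium arrays (median 332), 354, 189, 392 and 356 with R848, 347, 159, 345 and 316 with R848+API09, and 361, 553, 843 and 379 with R848+apilimod. The controls were at their lowest at 3 h, when the apilimod array was above every medium array. R848 lowered Fnip1 at 3 h (-0.56 ± 0.12) and 22 h (-0.45 ± 0.12), and both calls were lost with R848 alone as the control (-0.45 and -0.37). With apilimod it rose by 1.59 ± 0.12 at 3 h (limma, adjusted p = 7.45e-06) and 1.16 ± 0.12 at 7 h, 3.01-fold and 2.24-fold on the scale with 16 added. At 22 h the difference of 0.17 ± 0.12 did not pass. A second probe set gave 1.47 ± 0.10, 1.08 ± 0.10 and 0.62 ± 0.10, and all 3 passed. Another, dim one (11.5 to 60.2) gave 0.64 ± 0.14 and 0.91 ± 0.14 at 3 and 7 h, which passed, and 0.14 ± 0.14 at 22 h, which did not.

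Fnip2, which encodes the other folliculin partner, had the largest difference of the set. Its intensity was 356 to 585 on the medium arrays (median 383). It was 490, 242, 979 and 479 with R848 at 1, 3, 7 and 22 h, and 502, 248, 830 and 448 with R848+API09. With R848+apilimod it was 424, 2866, 2098 and 1016. In the controls Fnip2 dipped below every medium array at 3 h and stood above them at 7 h, while the apilimod array peaked at 3 h and declined without reaching the controls. With apilimod it rose by 3.46 ± 0.10 at 3 h (limma, adjusted p = 8.05e-09), 11.0-fold on the scale with 16 added, by 1.20 ± 0.10 at 7 h and by 1.11 ± 0.10 at 22 h. R848 lowered Fnip2 at 3 h (-0.66 ± 0.10) and 22 h (-0.33 ± 0.10) and raised it by 1.30 ± 0.10 at 7 h. The call at 22 h was lost with quantile normalization (-0.22) and without the R848+API09 array of that hour (-0.28).

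Rragc encodes RagC, the Rag GTPase that folliculin acts on and that binds the MiT/TFE factors. It was measured at 1256 to 1701 on the medium arrays (median 1283), 1209, 965, 1388 and 1375 with R848, 1222, 980, 1326 and 1271 with R848+API09, and 1255, 1979, 3229 and 2171 with R848+apilimod. The apilimod arrays at 3, 7 and 22 h were above all 14 other arrays of the set outside that arm. Rragc rose with apilimod by 1.01 ± 0.09 at 3 h (limma, adjusted p = 2.03e-05), 1.24 ± 0.09 at 7 h and 0.71 ± 0.09 at 22 h, which is 2.02-fold, 2.36-fold and 1.64-fold. R848 lowered it at 3 h (-0.36 ± 0.09) and 22 h (-0.36 ± 0.09), and the call at 3 h was lost without either control array of that hour (-0.35 and -0.37). Rragd, which encodes RagD, a paralogue of RagC that likewise pairs with RagA or RagB, was not above the filter of 18.1 on any array. Its 3 probe sets read 4.54 to 10.1, so no difference is given.

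Flcn, Fnip1, Fnip2, Rragc and Gpnmb were among the genes that rose with apilimod at 3 h. MiT/TFE proteins are known to bind the letters TCACGTG and related E-boxes, and whether they act on these genes here was not tested. The RefSeq promoter windows of the 10 genes (GRCm38.p6, 250 bases before to 50 after a start, 15 windows) were searched for TCACGTG and TCATGTG on both strands. The 250 bases before a RefSeq start of 4 genes are printed 5′ to 3′ to show the 2 with a match beside 2 of those without. The annotated span of Fnip1 starts at 54438107, and that of Fnip2, on the minus strand, ends at 79568151. The bases printed thus lie partly inside the span for Fnip1 and wholly inside it for Fnip2. For Fnip2 the bases before the outer end of the span were not searched. Flcn, whose window held no match either, is not printed. The capitals mark the match, which is TCACGTG read on the other strand.
Fnip1, GRCm38.p6 chr11:54437929-54438178, plus strand: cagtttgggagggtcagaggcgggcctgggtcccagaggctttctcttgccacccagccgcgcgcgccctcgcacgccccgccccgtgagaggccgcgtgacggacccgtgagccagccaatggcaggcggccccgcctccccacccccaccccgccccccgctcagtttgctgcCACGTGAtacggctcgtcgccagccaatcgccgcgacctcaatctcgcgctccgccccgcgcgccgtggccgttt
Rragc, GRCm38.p6 chr4:123917183-123917432, plus strand: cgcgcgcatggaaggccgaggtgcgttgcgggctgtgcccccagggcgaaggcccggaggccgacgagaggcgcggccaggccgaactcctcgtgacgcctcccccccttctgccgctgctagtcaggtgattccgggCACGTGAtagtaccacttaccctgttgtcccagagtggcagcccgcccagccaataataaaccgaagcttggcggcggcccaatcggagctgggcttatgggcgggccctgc
Fnip2, GRCm38.p6 chr3:79567680-79567929, minus strand: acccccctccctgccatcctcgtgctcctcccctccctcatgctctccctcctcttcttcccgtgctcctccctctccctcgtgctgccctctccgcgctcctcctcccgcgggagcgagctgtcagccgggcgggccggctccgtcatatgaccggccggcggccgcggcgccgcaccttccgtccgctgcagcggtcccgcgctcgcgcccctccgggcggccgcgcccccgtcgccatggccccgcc
Gpnmb, GRCm38.p6 chr6:49036268-49036517, plus strand: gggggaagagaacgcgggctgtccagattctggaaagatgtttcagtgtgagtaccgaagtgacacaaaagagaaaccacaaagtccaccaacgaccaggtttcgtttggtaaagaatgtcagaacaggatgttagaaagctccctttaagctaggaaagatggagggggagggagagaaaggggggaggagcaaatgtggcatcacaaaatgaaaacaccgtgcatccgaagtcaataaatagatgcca
The match began 75 bases before the RefSeq start used in Fnip1 and 112 bases before that used in Rragc. The match contains CACGTG, which was found in the same 2 windows. The other 13 windows, those of Flcn and of the 4 transcription factor genes included, held neither TCACGTG nor TCATGTG. Of all 32851 RefSeq windows of this length 3.77% held TCACGTG, 3.77% TCATGTG, 7.4% either and 7.15% CACGTG. A match is a description of letters and not of binding, and a window without one says nothing about the factor.

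Gpnmb, a transmembrane glycoprotein of lysosomes and a known MiT/TFE target in macrophages and osteoclasts, was higher with apilimod at 3, 7 and 22 h, by more at each later hour. It read 3984 to 5590 on the medium arrays (median 5341), 5077, 4347, 2291 and 1968 with R848, 5581, 4376, 2559 and 2018 with R848+API09, and 5276, 10691, 14852 and 16672 with R848+apilimod. The controls went down from hour to hour and the apilimod arrays went up, with no overlap between the arms from 3 h on. R848 lowered Gpnmb at 7 h (-0.71 ± 0.10) and 22 h (-1.19 ± 0.10), to 43.9% of medium at 22 h. Apilimod raised it by 1.29 ± 0.10 at 3 h, 2.61 ± 0.10 at 7 h and 3.05 ± 0.10 at 22 h (limma, adjusted p = 7.06e-06, 1.62e-08 and 9.45e-09), which is 2.45-fold, 6.10-fold and 8.31-fold. Against medium of the same hour the apilimod array was higher by 1.00, 1.89 and 1.87. The intensity of 16672 lies near the highest value of any probe set (20058 to 22099 per array), and how far the signal is compressed there was not tested.

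A second, dim Gpnmb probe set read 49.5 to 83.5 on the medium arrays, 73.2, 53.6, 25.0 and 11.4 with R848, 75.4, 56.3, 22.7 and 13.1 with R848+API09, and 79.9, 105, 263 and 92.1 with R848+apilimod. It went the same way as the first against the controls, by 0.77 ± 0.09, 2.81 ± 0.09 and 1.94 ± 0.09 at 3, 7 and 22 h, and all 3 passed. It was highest at 7 h and near the medium arrays at 22 h, where its difference from medium of 0.20 did not pass. The 2 probe sets therefore differ on whether Gpnmb still went up between 7 and 22 h.

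**Figure D2:**
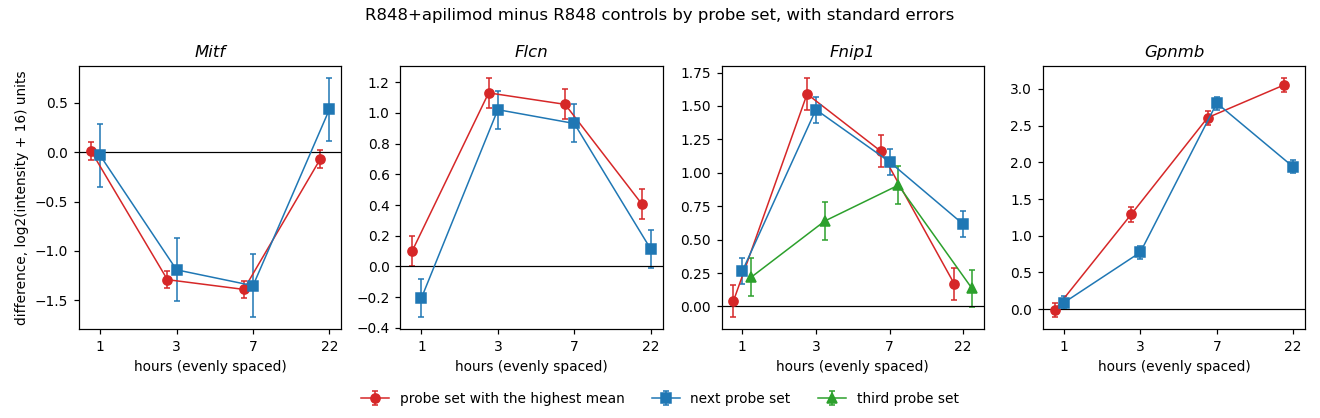
Difference of R848+apilimod from the R848 controls (log2(intensity + 16) units, with standard errors of the fit) by hour, evenly spaced, for the probe sets of Mitf, Flcn, Fnip1 and Gpnmb that passed the filter. The probe sets of a gene go the same way at 3 and 7 h and part at 22 h. There Gpnmb is at 3.05 and 1.94, Flcn at 0.41 and 0.11, Fnip1 at 0.17, 0.62 and 0.14, and Mitf at -0.07 and 0.43.

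**Figure D3:**
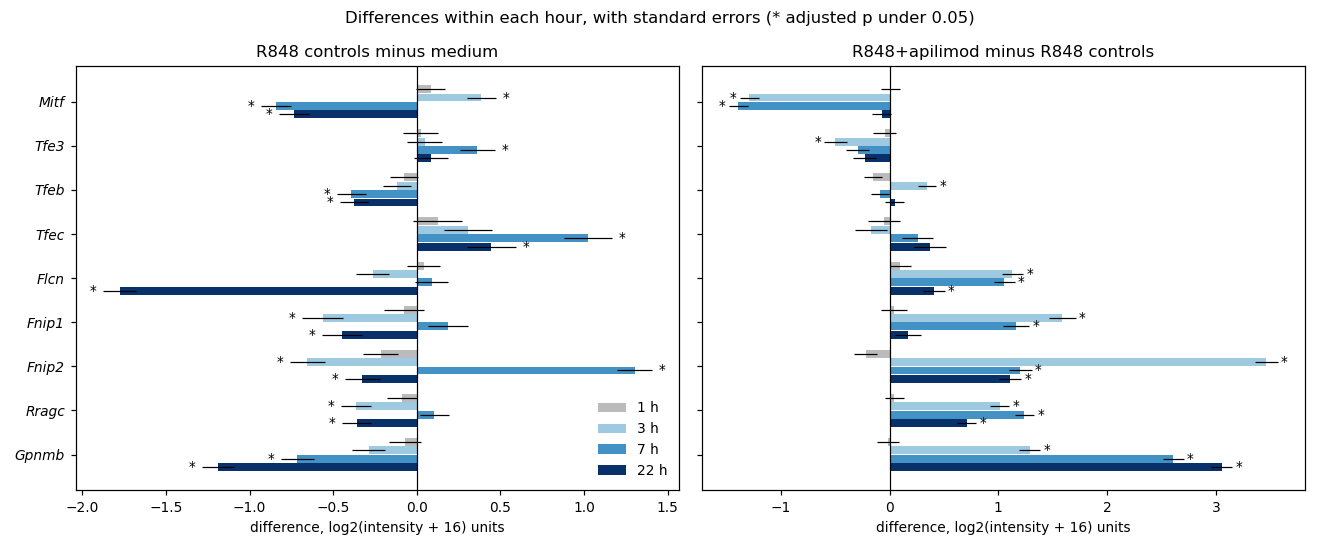
Differences of the R848 controls from medium (left) and of R848+apilimod from the R848 controls (right) in log2(intensity + 16) units for the 9 genes tested, as bars by hour with standard errors of the fit and asterisks for an adjusted p under 0.05. On the left Flcn at 22 h (-1.78) and Fnip2 at 7 h (1.30) stand out, and on the right Fnip2 at 3 h (3.46), Gpnmb at 22 h (3.05) and Mitf at 7 h (-1.39). The R848 controls enter both panels.

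Against unstimulated cells of the same hour, R848+apilimod changed 0 of the 9 genes at 1 h (0.604% of all genes passed), 7 at 3 h (16.5%), 8 at 7 h (31.3%) and 7 at 22 h (47.4%). The 8 genes at 7 h were all but Tfe3 (0.07 ± 0.12). Fnip2 was at 2.81 ± 0.12, 2.51 ± 0.12 and 0.78 ± 0.12 and Rragc at 0.65 ± 0.10, 1.35 ± 0.10 and 0.35 ± 0.10 at 3, 7 and 22 h. By 22 h Fnip1 (-0.28 ± 0.14) no longer passed, and Tfeb (-0.33 ± 0.10) and Mitf (-0.80 ± 0.10) were lower than in medium. The second Mitf probe set did not pass at 3 h (-0.78) and passed at 7 h (-1.82). The Tfeb call was lost with quantile normalization (-0.15) and with trended and robust variances, and the second Mitf probe set (-0.58) did not pass at 22 h. These comparisons use the same apilimod arrays as those above.

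The members also drifted in medium alone. Against the 2 arrays at 0 h, 1 of the 9 genes passed at 1 h (Fnip2, 0.62 ± 0.10; 0.408% of all genes), 0 at 3 h (0.971%), 0 at 7 h (0.343%) and 6 at 22 h (22%). At 3 and 7 h limma gave 1 and 2 of the 9 an unadjusted p under 0.05. At 22 h Flcn, Fnip1, Fnip2 and Rragc were higher by 0.61 ± 0.10, 0.46 ± 0.12, 0.64 ± 0.10 and 0.39 ± 0.09, and Tfe3 (-0.42 ± 0.10) and Tfec (-0.50 ± 0.15) were lower. The intensity of Flcn was 222 on the medium array at 22 h and 147 and 133 on the arrays at 0 h, while the R848 and R848+API09 arrays at 22 h lay below all of these at 56.4 and 50.5. Without either array at 0 h the calls of Fnip2 at 1 h and of Fnip1 and Tfe3 at 22 h were lost, while that of Tfec was lost without replicate 1 (-0.41) and that of Rragc without replicate 2 (0.36). Gpnmb at 7 h (-0.43) passed only under 6 of the alternatives, among them those without the R848+API09 or the R848 array at 22 h.

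Apilimod and API09 were compared at the same dose and hour, in 4 pairs of arrays, 1 per hour. All of these arrays also enter the comparison with the R848 controls, so one does not support the other. At 1 h 0 of the 9 genes passed (0% of all genes; 171 genes and 0 of the 9 had an unadjusted p under 0.05 with limma). At 3 h 7 passed (7.24% of all genes), at 7 h 6 (16.4%) and at 22 h 5 (34.3%). Fnip2 was higher with apilimod than with API09 by 3.45 ± 0.12, 1.32 ± 0.12 and 1.15 ± 0.12 at 3, 7 and 22 h. Gpnmb was higher by 1.29 ± 0.11, 2.53 ± 0.11 and 3.04 ± 0.11, and Mitf was at -1.30 ± 0.10 and -1.36 ± 0.10 at 3 and 7 h. Flcn and Rragc were higher at 3, 7 and 22 h and Fnip1 at 3 and 7 h. At 22 h the second Flcn probe set did not pass (0.29 ± 0.14), while the second Fnip1 probe set passed (0.56 ± 0.11). The second Mitf probe set passed at 7 h (-1.38 ± 0.37) and not at 3 h (-1.13 ± 0.37). Of these hours, Tfec passed at 22 h alone (0.57 ± 0.17), where its API09 array is the one that stood apart, at 166 against 223 with R848, and against both controls its difference of 0.37 did not pass. Tfe3 was lower at 3 h (-0.48 ± 0.12), a call lost with a pseudocount of 1 (-0.50) and without any 1 of 7 arrays that enter the spread. Adjusting p-values over all genes and the 4 pairs together changed none of these calls for the probe sets with the highest mean. Without the R848+API09 array at 22 h, and likewise without the R848 array of that hour, Tfeb at 3 h (0.32) and Tfe3 at 7 h (-0.31) passed as well.

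R848+API09 and R848 alone lay close for the members by the probe sets with the highest mean. Over the 36 pairs of arrays (9 genes at 4 hours) the median absolute difference was 0.0569 log2 units and 32 pairs lay under 0.2. The largest were Tfec at 22 h (0.39), Tfe3 at 22 h (0.24), Fnip2 at 7 h (0.23) and Fnip1 at 3 h (0.23). The second Mitf probe set, not among these pairs, read 25.8 with R848+API09 and 77.2 with R848 at 22 h. These distances were not counted over all genes. Over all hours 0 of the 9 genes passed, and 0% of all genes did (limma, 0 of 12257; 182 genes and 0 of the 9 at an unadjusted p under 0.05). The 95% intervals of the difference API09 minus R848 ran from -0.25 to 0.14 for Tfe3 and from -1.15 to 1.02 for Fnip2, whose interval was the widest. The arrays do not settle differences within these intervals.

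The effect of apilimod changed between hours for 6 of the 9 genes in any of the comparisons below, by a test of the difference of differences. The share of all genes that passed in any of them was not counted. From 3 to 7 h, 2 genes passed (4.76% of all genes): the Fnip2 effect became smaller (-2.26 ± 0.15) and the Gpnmb effect larger (1.32 ± 0.14). From 7 to 22 h 5 passed (20.1%), with Mitf at 1.32 ± 0.12, Gpnmb at 0.45 ± 0.14, Rragc at -0.53 ± 0.12, Flcn at -0.65 ± 0.14 and Fnip1 at -0.99 ± 0.17. From 3 to 22 h 5 passed (22.8%), with Gpnmb at 1.76 ± 0.14, Mitf at 1.22 ± 0.12, Flcn at -0.72 ± 0.14, Fnip1 at -1.42 ± 0.17 and Fnip2 at -2.36 ± 0.15. The change of Gpnmb from 7 to 22 h was turned by its second probe set (-0.87) and by the mean of both (-0.21). Its call was also lost with median centring (0.44), with R848 alone as the control (0.38) and without either medium array at 0 h. Without the R848+API09 array at 22 h, Rragc from 3 to 22 h (-0.36) and Tfeb from 3 to 7 h (-0.43) passed as well. Tfe3 (0.39), Tfeb (-0.30) and Tfec (0.74) from 3 to 22 h passed without the R848 array at 22 h. Which genes are counted thus depends on single arrays.

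Held over the 4 hours, no difference of the members passed. In the fit with a block for the hour, apilimod against R848 gave 0 of 9 genes (0% of all genes; limma, 0 of 12257 genes, with 1588 genes and 6 of the 9 at an unadjusted p under 0.05). Gpnmb was at 1.78 ± 0.39 and Rragc at 0.73 ± 0.18 (limma, adjusted p = 0.158 for each). Apilimod against API09 also gave 0 of 9 (0% of all genes; 1613 genes and 7 of the 9 unadjusted), and R848 against medium 0 of 9 against 0.995% of all genes (2 of the 9 unadjusted). Effects that differ between hours add to the spread of this fit, and without the 1 h arrays Gpnmb (2.35 and 2.28) and Rragc (0.96 and 1.01) passed against R848 and against API09.

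Genes next to the members in the pathway were counted from 4 lists, chosen with earlier results of these data known. A count above the share of all genes is thus a description and not a test. Of 32 known targets of MiT/TFE factors (mostly lysosomal and autophagy genes of the CLEAR network, with regulators such as Bhlhe40), 28 were tested. With apilimod 15 of them rose at 3 h, and 22 rose at both 7 and 22 h. Against the R848 controls none fell (0 of 28). Over all genes tested, 5.07%, 9.81% and 20.2% rose at these hours. The median difference was 0.39, 0.66 and 0.58, against -0.03, -0.02 and 0.03 over all genes tested. Gla, which encodes the lysosomal alpha-galactosidase, was at 1.33 ± 0.08, 2.48 ± 0.08 and 1.61 ± 0.08 at 3, 7 and 22 h, and Clcn7, a lysosomal chloride transporter gene, at 1.38 ± 0.12, 2.11 ± 0.12 and 1.36 ± 0.12. Bhlhe40, a transcriptional repressor gene, and Plekhm1, which acts in lysosome fusion, peaked at 7 h too (2.15 ± 0.11 and 1.85 ± 0.10). R848 itself lowered Plekhm1 at 3, 7 and 22 h (-1.66, -0.90 and -1.32, each ± 0.10). At 22 h its log2 value was 7.75 with apilimod and 8.43 in medium. With apilimod against medium, 11 genes of the list were higher and 1 lower at 3 h (16.5% of all genes passed). The counts were 21 and 2 at 7 h (31.3%) and 19 and 2 at 22 h (47.4%). In the R848 controls against medium, the list had 2 genes higher and 5 lower at 3 h. At 7 h 3 were higher and 10 lower, and at 22 h 8 were higher and 9 lower. The shares of all genes that passed in this comparison were 15.4%, 29.8% and 45.7%, and as a description the list lay above them.

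Of 33 other genes of the Rag and mTORC1 machinery, 30 were tested, and 4 rose at 3 h, 4 rose and 1 fell at 7 h, and 11 rose and 1 fell at 22 h with apilimod (medians -0.05, 0.06 and 0.16). Of all genes tested 9.19%, 19.6% and 34.5% passed in either direction at these hours, and the counts in either direction lie near these shares. The shares of all genes that rose were 5.07%, 9.81% and 20.2%, and as a description the rises of the list lay above them. Lamtor3, a subunit of the complex that anchors the Rag GTPases, rose by 0.67 ± 0.09 and 0.58 ± 0.09 at 3 and 7 h. Castor1, an arginine sensor gene, rose by 0.41 ± 0.10 at 7 h and 0.95 ± 0.10 at 22 h, and Nprl2, of the complex that inactivates the Rag GTPases, by 0.37 ± 0.11 at 7 h. Sesn1, which encodes a leucine-sensing sestrin, fell at 7 h (-0.45 ± 0.11).

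Of 21 kinase, phosphatase, ubiquitin ligase and channel genes that act on the MiT/TFE proteins, 17 were tested. With apilimod 1 rose at 3 h, 2 rose and 1 fell at 7 h, and 5 rose and 5 fell at 22 h. Against the same shares of all genes (9.19%, 19.6% and 34.5%), the count was near the background at 3 and 7 h and above it at 22 h. Mcoln1, the lysosomal calcium channel gene, was at 0.25 ± 0.09 at 3 h, which did not pass, and rose by 0.99 ± 0.09 at 7 h and 0.97 ± 0.09 at 22 h. Smurf1, a ubiquitin ligase gene, rose at all 3 hours (0.94 ± 0.09, 0.55 ± 0.09 and 0.63 ± 0.09), and Prkaa1, a catalytic subunit gene of AMP-activated kinase, fell at 7 h (-0.47 ± 0.14) and 22 h (-0.63 ± 0.14).

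Of 10 genes known as targets of Mitf and Tfe3 in osteoclasts 8 were tested, and with apilimod 3 rose and 2 fell at 3 h. At 7 h the counts were 4 and 2, and at 22 h they were 6 and 0. The median difference was 0.06, 0.29 and 0.39, and of all genes 9.19%, 19.6% and 34.5% passed in either direction. Atp6v0d2, a proton pump subunit gene, rose by 0.82 ± 0.20, 2.96 ± 0.20 and 4.21 ± 0.20, and Ctsk, which encodes the bone-degrading protease cathepsin K, by 1.07 ± 0.13, 2.46 ± 0.13 and 2.63 ± 0.13. Acp5, the tartrate-resistant acid phosphatase gene, rose by 1.12 ± 0.09, 1.37 ± 0.09 and 0.38 ± 0.09. Tnfrsf11a, which encodes the receptor for the osteoclast growth signal RANKL, fell at 3 h (-0.71 ± 0.11) and 7 h (-0.84 ± 0.11), and its difference at 22 h (-0.21 ± 0.11) did not pass.

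Osteoclast markers were of unlike pattern beside the rise of Gpnmb. Of 6 such genes, all of them also in the list of osteoclast targets, 4 were above the filter, and their list summed to 2508 to 6973 on the R848+apilimod arrays, against 1847 to 2546 on medium, 1790 to 2701 with R848 and 1489 to 2932 with R848+API09. The sum was set mostly by Ctsk and Acp5, whose differences are given above. Dcstamp, which acts in the fusion of osteoclast precursors, read 432, 817, 227 and 116 with R848+apilimod at 1, 3, 7 and 22 h, 448, 826, 274 and 53.9 with R848, and 441, 838, 284 and 19.2 with R848+API09. Ocstamp, of the same function, read 48.6, 124, 48.9 and 23.2 with R848+apilimod, 56.0, 180, 72.0 and 22.2 with R848, and 56.2, 192, 84.9 and 15.5 with R848+API09. At 3 and 7 h both were lowest on the apilimod array of the stimulated arms, and at 22 h highest. The margin was small for Dcstamp at 3 h (817 against 826 and 838) and for Ocstamp at 22 h (23.2 against 22.2 with R848). At 22 h the R848+API09 array is the one that stood apart. Calcr, the calcitonin receptor gene, was below the filter on every array and Oscar was above it on 1 array. The part of such cells in the results of Gpnmb and Mitf was not tested, and in a bulk sample a change in the share of cells and a change per cell cannot be told apart. Of 7 melanocyte markers, 2 were above the filter and the list summed to 110 to 151 over all arms. Of the marker lists for fibroblasts, T and B cells and epithelium, 0 of 4, 1 of 4 and 2 of 4 genes were above it.

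Across the 18 arrays some members ran together. Pearson's r of the log2 values, given as a description over arrays that share arm, hour and RNA, was 0.88 between Fnip1 and Rragc, 0.84 between Fnip2 and Rragc, -0.85 between Mitf and Rragc and -0.80 between Mitf and Fnip2. The genes of the whole table whose values were most like those of Gpnmb were Ctsk (r of 0.95), Ckb (0.94) and Ttyh2 (0.93). For Mitf they were Enc1 (0.94), Nfatc2 (0.94) and Map3k5 (0.92), for Rragc Mpeg1 (0.95), Lyst (0.93) and Golph3l (0.93), and for Tfec Myo1d (0.95), Gbp2 (0.94) and Tnfaip1 (0.93). Flcn was most like Ubr2 (0.92), Slc25a44 (0.92) and Vps26a (0.91), Fnip1 like Snx8 (0.89), Pip4p1 (0.88) and Mvd (0.86), and Fnip2 like Samd8 (0.89), Eps8 (0.88) and Cpeb4 (0.88). Tfeb and Tfe3 spanned only 0.83 and 0.86 log2 units over all arrays, and no most alike genes are given for them.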

How the data were processed

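Amplified and biotin-labelled total RNA of RAW cells (NuGEN Ovation, per the labels' protocols) was measured on Affymetrix mouse arrays. Each deposited value is the linear intensity of a probe set on an array. How the authors corrected, summarised and normalized it is not given in the sources read here. Limma is named in the submitters' processing notes, its role is not. The number of arrays limits the precision.

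A probe set was kept where 3 or more arrays exceeded 18.1, the median over the whole table, and each gene was represented by its kept probe set with the highest mean. Values were tested as log2(intensity + 16), which understates changes of dim genes, with limma 3.58.1 in R 4.3.3 (moderated variances, Benjamini-Hochberg over 12257 genes, called at an adjusted p under 0.05). Within hours, a mean was fitted per arm and hour, with R848 and R848+API09 of an hour sharing 1. These pairs and the 2 medium arrays at 0 h supply the spread (5 residual degrees of freedom), so lone arrays are assumed to vary like them and API09 is not tested against R848 within an hour. A second fit had arm terms and an hour block. The code was tested on simulated data.

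The members and the gene lists were chosen with earlier results of these data known. Of each list up to 4 genes are named, those with the largest absolute difference from the R848 controls at 7 h among called genes; the most alike genes are the 3 highest r with a range of at least 1 log2 unit. Alternatives tried were quantile normalization, median centring, pseudocounts of 1 and 64, other filters and other probe sets. Trended and robust variances and either control alone were tried too. Single arrays of medium at 0 h, R848 and R848+API09 were left out, and in the second fit the arrays of an hour. No R848+apilimod array and no medium array after 0 h was left out alone, as each gives the mean of its arm and hour by itself.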

Additional observations from a re-analysis of the deposited data

Results flagged for a closer look

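The effect of apilimod against the R848 controls differed between hours for 6 of the 9 genes, by the difference of the 2 differences in the limma fit within hours (log2 units, later minus earlier hour). Each hour has 1 apilimod array, so a fault of a single array would enter these values. Between 3 and 7 h the difference was -2.26 for Fnip2 and 1.32 for Gpnmb. Between 7 and 22 h it was -0.65 for Flcn, -0.99 for Fnip1, -0.53 for Rragc, 1.32 for Mitf and 0.45 for Gpnmb. Between 3 and 22 h it was -0.72 for Flcn, -1.42 for Fnip1, -2.36 for Fnip2, 1.22 for Mitf and 1.76 for Gpnmb. Of all genes 4.76% passed between 3 and 7 h, 20.1% between 7 and 22 h and 22.8% between 3 and 22 h. The share that passed in any of these was not counted. For Mitf the positive values stand for a fall with apilimod at 3 and 7 h that was no longer measured at 22 h.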

How the results depend on the processing

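Of 95 called differences of the members, recomputed in 1849 alternative values, 1775 stayed called in the same direction, 72 were no longer called and 2 turned. Both that turned are the larger Gpnmb effect at 22 h than at 7 h (0.45), which was -0.87 with its second probe set and -0.21 with the mean of its probe sets. Many of the alternative values keep the difference and change the spread alone. The single arrays left out were those of medium at 0 h, R848 and R848+API09, never an apilimod array or a later medium array. For apilimod against medium only the spread could thus change, and its range below does not test those differences. Leaving out 1 array at a time, the calls of the members summed over hours were 16 to 20 for apilimod against the R848 controls (18 with all arrays), 15 to 21 for the R848 controls against medium (18), 22 to 22 for apilimod against medium (22), 11 to 16 for the change of the apilimod effect between hours (12) and 3 to 8 for medium against 0 h (7). For apilimod against API09 they were 11 to 20 (18), where 11 arises because an hour without its API09 array has no pair. They were 0 to 0 over all hours (0), and 4 when the 1 h arrays were left out together. No scaling moved the median of all genes by over 0.1. Replicate numbers pair no arrays here, as the labels give them at 0 h alone, and the hour was the block in the fit over all hours. With 1 array per arm and hour, small differences at 1 h could not be shown. The intensity of Rragd and of the dim probe sets lies near background, whose size is not given.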
